A study of Mus musculus with 8 samples.

Results

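The annexins measured here are Anxa1, Anxa2, Anxa3, Anxa4, Anxa5, Anxa6, Anxa7, Anxa8, Anxa9 and Anxa11, 10 of the 55276 gene symbols with deposited counts. They are listed by name from the family, and the rule that lists them uses no measured value, although earlier results of these data were known. Cells of the esophageal epithelium of C57BL6 mice aged 14 to 15 weeks were sequenced in bulk after flow sorting. The epithelium had been peeled off the muscle and digested with dispase and trypsin, and live cells (DAPI negative) carrying integrin beta-1 were kept. They were parted by Cyto-ID, a dye that labels autophagic vesicles, into a Low and a High fraction. Of the 4 animals, Female1 and Female2 were female and Male1 and Male2 were male. Each gave 1 library of each fraction, so that 8 libraries made 2 groups of 4. No allele or transgene is named for any group, the treatment label gives only the Cyto-ID fraction, and the labels call the cells squamous.

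Annexins are proteins that bind acidic phospholipids, above all phosphatidylserine, when calcium rises. Each has a conserved core of annexin repeats that docks on the membrane and a variable amino-terminal tail that binds partners such as S100 proteins. They take part in vesicle traffic, exocytosis, the sealing of torn plasma membranes and links between membrane and actin. In stratified squamous epithelia they are known as abundant calcium-dependent proteins of keratinocytes, and Anxa1 is a substrate from which transglutaminases build the cornified envelope.

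The annexin genes lie apart on the mouse chromosomes, which bears on how their starts can be compared. In GRCm38, Anxa9 spans chr3:95296096-95307176 and Anxa5 chr3:36448923-36475894, both on the minus strand. Anxa7 (chr14:20455260-20480133, minus strand), Anxa11 (chr14:25842156-25886804, plus strand) and Anxa8 (chr14:34085981-34100571, plus strand) share a chromosome. Anxa6 lies at chr11:54979108-55033445, minus strand, Anxa3 at chr5:96793339-96845966, plus strand, and Anxa4 at chr6:86736840-86793584, minus strand. Anxa1 lies at chr19:20373428-20390944, minus strand, and Anxa2 at chr9:69453620-69491795, plus strand. All 10 are protein-coding in GENCODE M21.

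RefSeq promoter windows on GRCm38.p6 were found for 8 of the 10, the others being Anxa3 and Anxa6. The windows below show 4 members that span the range of the results, namely Anxa9 and Anxa7, which were higher in Cyto-ID High, Anxa11, which was lower, and Anxa2, an abundant member that was called in neither direction. Each reads 5′ to 3′ on the gene's strand, stops at the RefSeq start or where an annotated exon begins before it, and has matches to the searched motifs in capitals.
Anxa9, chr3:95307193-95307342, minus strand: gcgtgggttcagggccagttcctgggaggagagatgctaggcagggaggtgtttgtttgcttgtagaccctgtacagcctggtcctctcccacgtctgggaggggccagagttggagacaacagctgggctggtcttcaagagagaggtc
Anxa7, chr14:20480134-20480283, minus strand: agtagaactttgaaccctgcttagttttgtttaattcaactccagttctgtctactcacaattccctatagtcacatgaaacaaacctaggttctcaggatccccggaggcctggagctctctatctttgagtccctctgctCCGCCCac
Anxa11, chr14:25842005-25842154, plus strand: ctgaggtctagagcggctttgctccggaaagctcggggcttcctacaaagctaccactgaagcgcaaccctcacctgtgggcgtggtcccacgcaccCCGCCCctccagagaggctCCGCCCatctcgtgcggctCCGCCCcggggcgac
Anxa2, chr9:69453533-69453619, plus strand: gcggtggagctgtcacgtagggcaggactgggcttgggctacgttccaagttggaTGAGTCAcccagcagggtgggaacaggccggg

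The motifs were searched on both strands in the 250 bases before the start, as exact letters. They were AP-1 (TGAGTCA or TGACTCA), the TATA box (TATAAA), the GC box (GGGCGG), the CCAAT box (CCAAT) and a grainyhead motif (AACCGGTT, AACCAGTT or AACTGGTT). Among 32851 RefSeq promoters, 4.46% held the AP-1 letters, 12.4% TATAAA, 32.7% GGGCGG, 33.8% CCAAT and 0.77% the grainyhead letters. Anxa2 held 1 AP-1 match, 95 to 89 bases before its start. It also held TATAAA, 17 to 12 bases before the start, and 3 GC boxes, 190 to 185, 48 to 43 and 24 to 19 bases before it, which lie outside the printed stretch. Anxa11 held 3 GC boxes, written CCGCCC on the printed strand, between 53 and 10 bases before its start. Anxa7 held 1 GC box, 8 to 3 bases before the start whose window is shown. The Anxa9 window held none of these letters. Of the members not shown, Anxa1 held TATAAA, 32 to 27 bases before its start, and a further Anxa7 start held 4 GC boxes. A match describes the letters only.

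The libraries held 26285150 to 28599954 counts in Cyto-ID Low and 27486049 to 29301054 in Cyto-ID High, and 22208 to 28266 genes were detected. All 10 basal keratinocyte markers listed for the check of the cell type were lower in Cyto-ID High and all 10 suprabasal markers were higher, under scaling by total counts too. Krt4 and Krt13 alone took 1.71% ± 0.77 of counts in Low and 12.1% ± 1.5 in High (SD, n = 4 each). Of non-epithelial markers 0 had no count in a whole fraction. Their summed levels in Low and High were 57.7 to 94.5 and 9.78 to 96.0 CPM (counts over the library total multiplied by its factor from the trimmed mean of M values, TMM) for leukocytes (1 of 9 tested genes higher, 1 lower), 388 to 600 and 41.7 to 638 for fibroblasts (1 of 9 lower), 22.9 to 37.6 and 6.74 to 43.8 for endothelium (0 of 9 called) and 24.6 to 45.6 and 2.93 to 60.8 for muscle (0 of 9 called). In all 4 lists Male2 High was the lowest library and Female1 High the highest of its fraction. Their part in the annexin results was not tested. In sorted bulk samples, fewer cells of a type and less RNA per cell cannot be told apart.

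All 10 annexins passed the filter on low counts. Of these, 5 differed between the fractions at an adjusted p under 0.05, in edgeR's quasi-likelihood test with Benjamini-Hochberg adjustment over all 17344 tested genes. Anxa9 and Anxa7 were higher in Cyto-ID High, and Anxa3, Anxa6 and Anxa11 were lower, although scaling by total counts turned the sign for Anxa7. Among all tested genes 48.7% were called, 23.4% higher and 25.3% lower, so the share of annexins called was close to the background. The 4 High and 4 Low values did not overlap for 5 annexins (Anxa1, Anxa3, Anxa6, Anxa9, Anxa11), against 48.6% of all tested genes. The median log2 fold change of the 10 was −0.08, beside −0.09 for all tested genes.

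**Figure D1:**
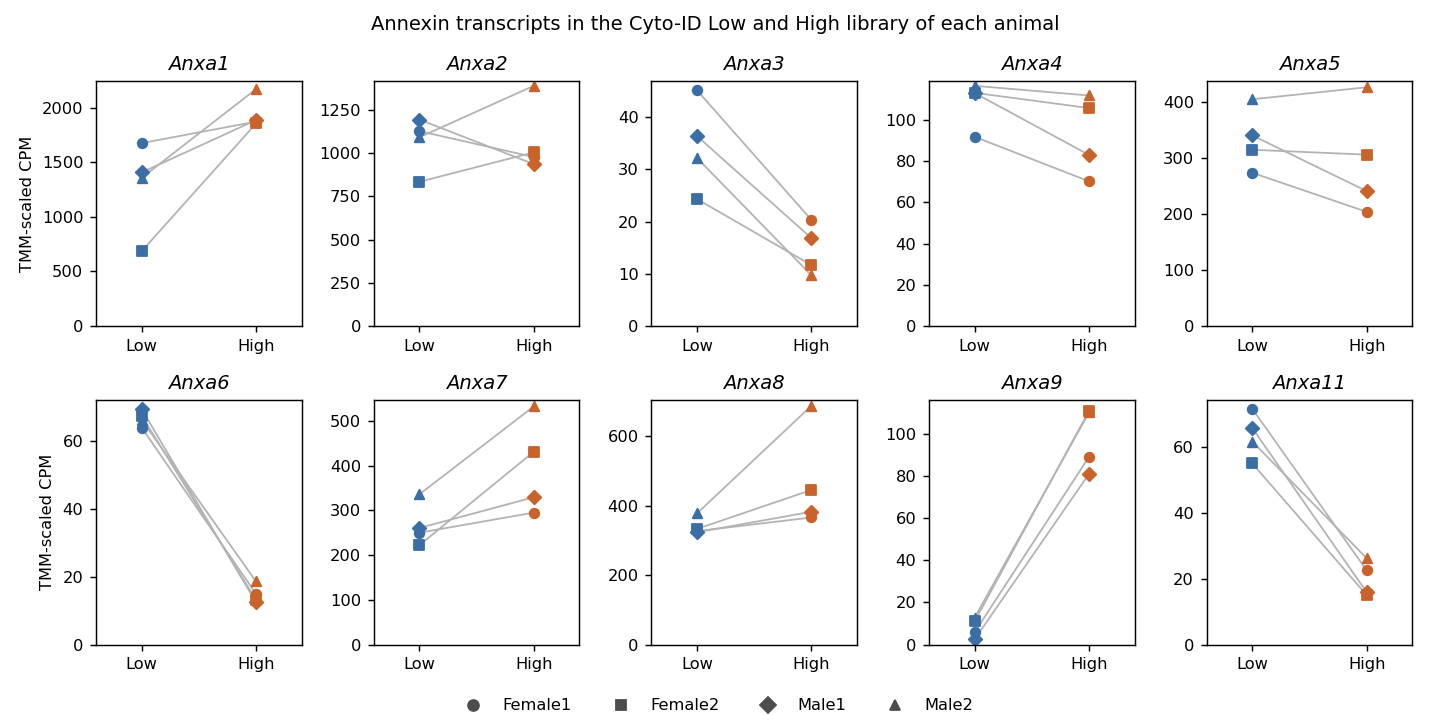
TMM-scaled CPM of each annexin (vertical axis from 0, a panel each) in the Cyto-ID Low and High library of the 4 animals, with a line joining the libraries of an animal. The lines of Anxa9 all climb and those of Anxa3, Anxa6 and Anxa11 all descend, while those of Anxa2 cross.

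Anxa9, or pemphaxin, is a keratinocyte annexin whose calcium-binding sites have degenerated. In Cyto-ID Low it stood at 5.84, 11, 2.49 and 12.7 CPM in Female1, Female2, Male1 and Male2, the order used throughout. In Cyto-ID High it stood at 88.9, 110.7, 80.9 and 110.0 CPM. Every High library lay far above every Low library, and Male1 was the lowest in both fractions. The mean rose from 8.02 ± 4.71 to 97.6 ± 15.1 CPM (SD, n = 4 each), which is 12.2-fold, and the raw counts were 80 to 422 in Low and 2121 to 2542 in High. The fitted log2 fold change was 3.61 (SE 0.44, edgeR adjusted p = 0.000126), and within the animals the differences were 3.91, 3.32, 4.98 and 3.10. Scaling by total counts gave 3.02 (edgeR adjusted p = 0.000377). Anxa9 shares 71 exon bases with Mindy1 on the other strand, and Mindy1 stood at 95.7 ± 12.9 CPM in Low and 173.4 ± 45.2 in High. Whether the counting used strand is not given in the sources used here, so reads from the shared bases cannot be assigned.

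Anxa7, or synexin, drives the fusion of secretory granules and binds the calcium protein sorcin. Its Low libraries held 250, 222, 260 and 336 CPM and its High libraries 295, 431, 329 and 532 CPM. High exceeded Low in each of the 4 animals, yet the groups overlapped, because Male2 Low lay above Female1 High and Male1 High. The means were 267 ± 48.6 and 397 ± 107 CPM (SD, n = 4 each). The fitted log2 change was 0.58 (SE 0.20, edgeR adjusted p = 0.0404), with differences of 0.24, 0.96, 0.34 and 0.66 within the animals. The call was lost when any of 5 libraries was left out, namely Low Female1 (edgeR adjusted p = 0.0665), Low Female2 (0.0749), Low Male1 (0.0844), High Female2 (0.13) and High Male2 (0.122). Scaling by total counts gave −0.02 (edgeR adjusted p = 0.924), with differences of −0.15, 0.24, −0.06 and −0.11 within the animals.

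Anxa6 is the annexin with a doubled core, known for binding late endosomes and for its link to cholesterol traffic. Its Low libraries were close together at 63.9, 67.3, 69.3 and 66.2 CPM. Its High libraries held 14.9, 13.2, 12.4 and 18.6 CPM. The groups lay far apart, and each animal showed the drop. The mean was 66.7 ± 2.26 CPM in Low and 14.8 ± 2.75 in High (SD, n = 4 each), 4.53-fold more in Low. The log2 fold change was −2.18 (SE 0.15, edgeR adjusted p = 1.33e-05), with differences from −2.48 in Male1 to −1.83 in Male2.

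Anxa11 binds S100A6 and the penta-EF-hand protein ALG-2 (Pdcd6), and is known for tethering RNA granules to lysosomes. It stood at 71.7, 55.1, 65.9 and 61.8 CPM in Low and at 22.5, 15.0, 15.9 and 26.2 CPM in High. The lowest Low library was above the highest High library by more than the spread of either group. The mean fell from 63.6 ± 6.99 to 19.9 ± 5.38 CPM (SD, n = 4 each), and was 3.20-fold higher in Low. Its fitted log2 fold change was −1.68 (SE 0.20, edgeR adjusted p = 0.00011), and the within-animal differences ran from −2.04 in Male1 to −1.23 in Male2.

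Anxa3 is best known from the granules of neutrophils and is also made by epithelia. Its Low libraries held 45.2, 24.3, 36.4 and 32.2 CPM and its High libraries 20.3, 11.7, 16.9 and 9.72 CPM. The groups did not overlap, though Female2 Low stood only a little above Female1 High. The mean fell from 34.5 ± 8.69 to 14.7 ± 4.84 CPM (SD, n = 4 each), and was 2.36-fold higher in Low. On the log2 scale the fitted change was −1.24 (SE 0.26, edgeR adjusted p = 0.0034), with the widest difference, −1.72, in Male2. Within High, Anxa3 was highest in Female1 and lowest in Male2, as the summed leukocyte, fibroblast, endothelial and muscle markers were. Without both libraries of Male2, an alternative chosen after the data were seen, the call held. That fit does not bear on the part of those cell types in the Anxa3 counts, which was not tested.

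Anxa1, or lipocortin, is a target of the epidermal growth factor receptor kinase, a ligand of formyl peptide receptors and an envelope precursor. It had the highest count of the family in every library but Female2 Low, where Anxa2 was above it, with 1677, 686, 1408 and 1358 CPM in Low and 1874, 1857, 1888 and 2172 CPM in High. All 4 High libraries lay above all 4 Low libraries, and Female2 Low was far below the other Low libraries. The means were 1282 ± 421 and 1948 ± 150 CPM (SD, n = 4 each). The log2 fold change of 0.61 (SE 0.25) did not pass the test (edgeR adjusted p = 0.0761), but with the animal as a block it was 0.67 and passed (edgeR adjusted p = 0.0323). With total counts as the scale it was 0.05 (edgeR adjusted p = 0.87), with differences of −0.23, 0.72, 0.03 and −0.09 within the animals. Without Low Female2 the log2 fold change was 0.40 (edgeR adjusted p = 0.0744), and without Low Female1 it was 0.86 and passed (0.0172).

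Anxa8 is an annexin of stratified epithelia that binds late endosomes. It stood at 327, 333, 324 and 378 CPM in Low and at 366, 445, 383 and 688 CPM in High. High exceeded Low in each animal, by 0.16, 0.42, 0.24 and 0.86 on the log2 scale, but Male2 Low lay above Female1 High. Male2 High stood well above the other High libraries. The log2 fold change of 0.45 (SE 0.21) did not pass the test (edgeR adjusted p = 0.0965), and scaling by total counts turned it to −0.14 (0.409). With total counts the differences within the animals were −0.22, −0.30, −0.15 and 0.09. With TMM and without High Male2 the log2 fold change was 0.23 (edgeR adjusted p = 0.299), and without High Male1 it was 0.58 and passed (0.0412).

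Anxa2 forms a tetramer with S100A10 that binds plasminogen activator at the cell surface. Its Low libraries held 1128, 834, 1195 and 1092 CPM and its High libraries 978, 1005, 937 and 1390 CPM. The groups overlapped, with High above Low in Female2 and Male2 and below it in Female1 and Male1. The means were 1063 ± 158 and 1077 ± 210 CPM (SD, n = 4 each), and the log2 fold change was 0.02 (SE 0.18, edgeR adjusted p = 0.945). Scaling by total counts turned it to −0.56, which passed (edgeR adjusted p = 0.00639).

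Anxa5, the phosphatidylserine binder used as a probe for dying cells, forms lattices at membrane wounds. It stood at 273, 314, 340 and 405 CPM in Low and at 204, 306, 241 and 426 CPM in High. The groups overlapped, and the log2 fold change of −0.18 (SE 0.21) did not pass (edgeR adjusted p = 0.527). Anxa4, an annexin of secretory and apical epithelial membranes, stood at 91.9, 113.2, 113.1 and 116.6 CPM in Low and at 70.2, 105.8, 83.1 and 111.9 CPM in High. It was lower in High in each animal, by 0.06 in Male2 to 0.44 in Male1 on the log2 scale, but its groups overlapped. Its log2 fold change of −0.23 (SE 0.17) did not pass (edgeR adjusted p = 0.31). Scaling by total counts gave −0.78 for Anxa5 and −0.82 for Anxa4, and both passed (edgeR adjusted p = 0.00169 and 0.000539).

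A scale set by total counts changed 4 annexin calls, since Anxa2, Anxa4 and Anxa5 then passed and Anxa7 no longer did. The TMM factors were 1.22 ± 0.065 in Low and 0.828 ± 0.118 in High (SD, n = 4 each). Scaling by total counts moved the median log2 fold change of all genes from −0.09 to −0.64, a shift of −0.55, and 7 annexins were then called, 1 higher and 6 lower. On that scale 61.7% of all tested genes were called, 12.6% higher and 49.1% lower, so this share was near the background too. With the animal as a block 6 annexins were called, 3 higher and 3 lower, against 53.8% of all tested genes, 25.4% higher and 28.5% lower. Among all called genes the share higher in High was 48.0% with TMM and 20.5% with total counts. Values taken relative to the median gene differ little between the scales by construction, and they place each annexin against the other genes. The values with TMM and with total counts were 3.70 and 3.66 for Anxa9, 0.70 and 0.68 for Anxa1, 0.67 and 0.62 for Anxa7, 0.54 and 0.50 for Anxa8, and 0.11 and 0.08 for Anxa2. They were −0.09 and −0.15 for Anxa5, −0.14 and −0.18 for Anxa4, −1.15 and −1.12 for Anxa3, −1.59 and −1.61 for Anxa11, and −2.09 and −2.12 for Anxa6.

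**Figure D2:**
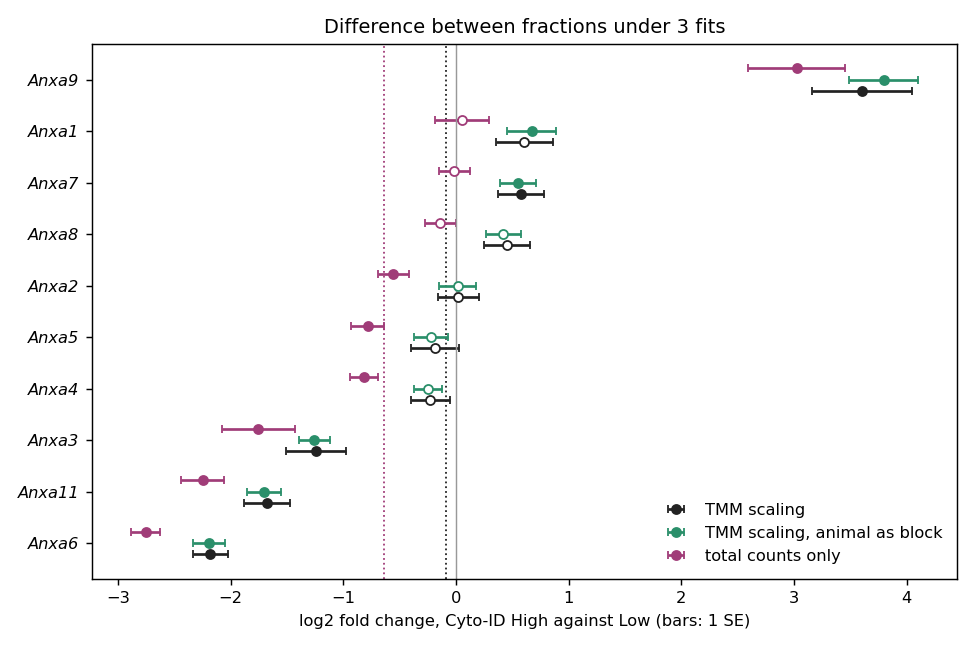
Log2 fold change of Cyto-ID High against Low (horizontal axis, bars 1 SE) for each annexin under TMM scaling, with the animal as a block, and under total counts, with filled points for an adjusted p under 0.05 and dotted lines at the median of all tested genes. Anxa9 and the group of Anxa3, Anxa11 and Anxa6 stay on their side of 0 in all 3, and the points of Anxa2, Anxa7 and Anxa8 cross 0 under total counts.

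Ratios of annexins within a library, taken here as counts per kilobase of exons, do not depend on the scaling. The pairs followed no stated rule. Those of Anxa9 set the most raised member against lowered ones, so they restate the fold changes above. Per kilobase, Anxa9 stood at 0.171 ± 0.100 of Anxa6 in Low and at 9.48 ± 1.65 times Anxa6 in High (SD, n = 4 each), so their order per length turned in every animal. The per-kilobase ratio of Anxa9 to Anxa11 likewise went from 0.262 ± 0.169 to 10.3 ± 3.11. Anxa5 to Anxa7 per kilobase stood at 4.23 ± 0.465 in Low and 2.47 ± 0.161 in High, and the groups did not overlap. Anxa1 to Anxa2 per kilobase stood at 1.51 ± 0.352 and 2.35 ± 0.249, again without overlap, with Female2 Low the lowest at 1.05. Anxa8 to Anxa2 per kilobase stood at 0.648 ± 0.116 and 0.854 ± 0.102, and the groups overlapped, since Female2 Low at 0.793 lay above Female1 High at 0.743.

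To compare levels between genes, CPM were divided by the length of the merged exons. In Low the order of levels per kilobase was Anxa1, Anxa2, Anxa5, Anxa8, Anxa7, Anxa4, Anxa6, Anxa11, Anxa3 and Anxa9. The level ranged from 440 ± 145 CPM per kb for Anxa1 to 3.87 ± 2.27 for Anxa9 (SD, n = 4). Neighbours whose Low values overlapped were Anxa1 and Anxa2, Anxa2 and Anxa5, Anxa5 and Anxa8, and Anxa4 and Anxa6. In High the order was Anxa1, Anxa2, Anxa8, Anxa5, Anxa7, Anxa9, Anxa4, Anxa6, Anxa11 and Anxa3. Anxa9 thus moved from the last place to just below Anxa7, at 47.1 ± 7.26 against 66.2 ± 17.9 CPM per kb, and these values overlapped. The other overlapping neighbours in High were Anxa2 and Anxa8, Anxa8 and Anxa5, Anxa6 and Anxa11, and Anxa11 and Anxa3. With the longest transcript as the length, the last 3 places in High went to Anxa3, Anxa11 and Anxa6.

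**Figure D3:**
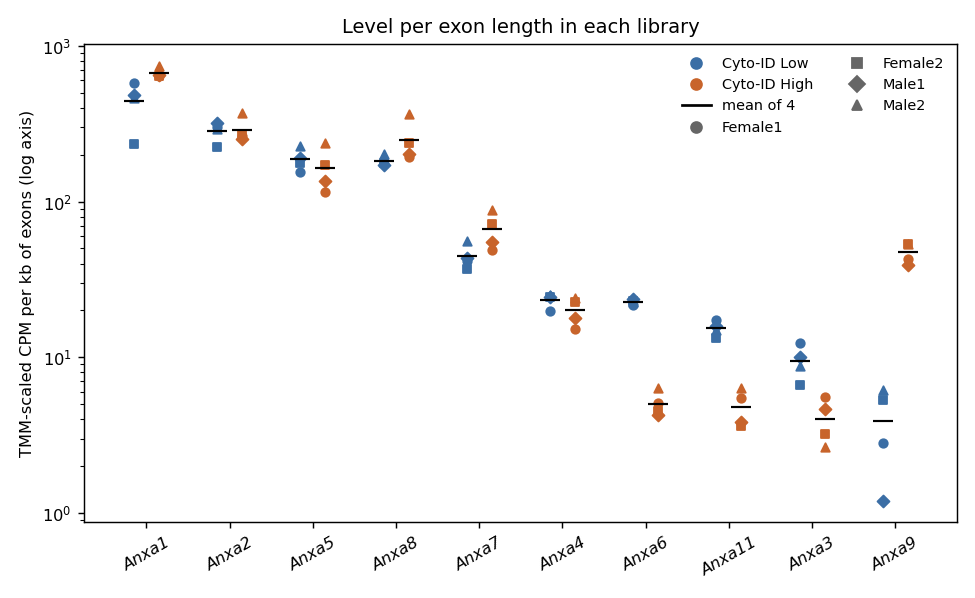
TMM-scaled CPM per kb of exons (log axis) of each annexin in each library, Cyto-ID Low and High side by side, with a marker shape for each animal. Anxa1 and Anxa2 lead in both fractions, and Anxa9 shifts from 3.87 to 47.1 CPM per kb on average.

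The annexins together took 0.432% ± 0.059 of all counts in Low and 0.36% ± 0.015 in High (SD, n = 4 each), while their summed TMM-scaled level was 3567 ± 606 and 4426 ± 724 CPM. Most of the summed level per kilobase came from few members. Anxa1 made up 35.5% ± 7.5 of it in Low and 44.5% ± 4.2 in High, with Female2 Low the lowest at 25.5%. The share of Anxa2 was 23.5% ± 1.3 and 18.9% ± 0.7, and that of Anxa5 was 15.7% ± 3.2 and 10.7% ± 1.8. Anxa8 made up 15.2% ± 2.8 and 16.2% ± 2.1. Anxa9 made up 0.336% ± 0.222 and 3.12% ± 0.38, and Anxa6 1.92% ± 0.39 and 0.332% ± 0.034.

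**Figure D4:**
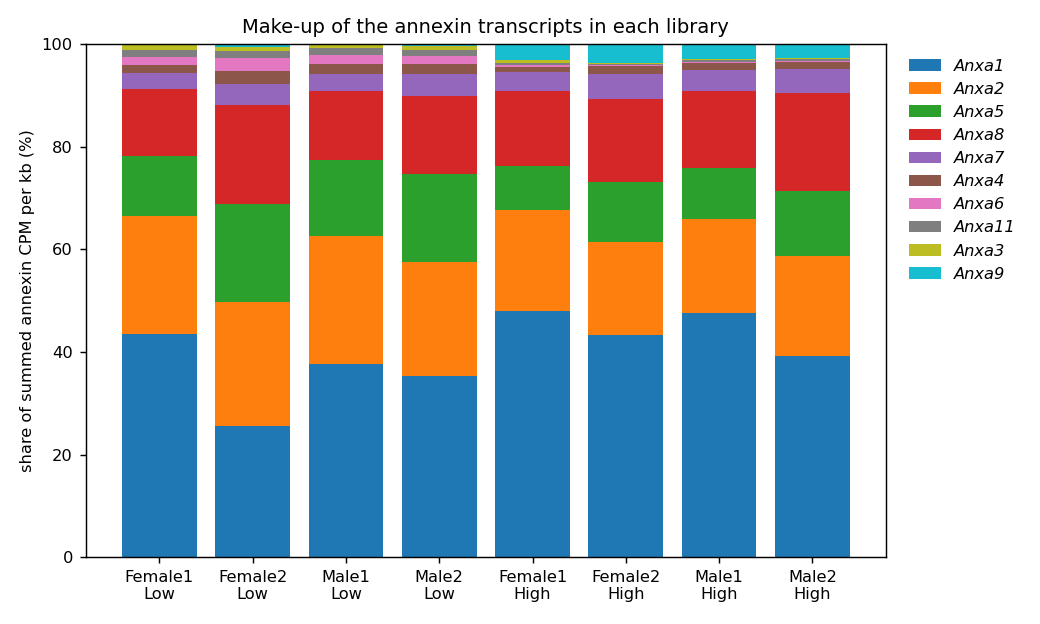
Share of the summed annexin CPM per kb (vertical axis, percent) taken by each annexin in each of the 8 libraries, stacked to the whole. The band of Anxa1 is narrowest in Female2 Low, at 25.5%, and the bands of Anxa2 and Anxa5 are narrower in High than in Low of the same animal.

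The dependence of the difference on sex was tested as an interaction of sex and fraction with 2 animals per sex. It was called for 0 of the 10 annexins and for 0% of the 17344 genes (edgeR's quasi-likelihood test, Benjamini-Hochberg adjustment), and at an unadjusted p under 0.05 for 0 annexins and 19 genes. The interaction farthest from 0 among the annexins was that of Anxa8, at 0.31 in males minus females (SE 0.43, edgeR adjusted p = 1), and the SEs ran from 0.32 for Anxa6 to 0.87 for Anxa9. The 19 genes are fewer than an unadjusted threshold of 0.05 passes by chance over that many genes, so this test was conservative and the absence of calls does not show that the sexes were alike.

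The remaining mouse annexins were hardly counted and did not pass the filter. Anxa10, an annexin of gastric epithelium, had 4 counts in Female2 Low, 36 in Female2 High and 1 in Male2 High, and 0 in the other 5 libraries. Gastric epithelial markers were also highest in Female2, at 19.4 CPM in Low and 117.8 in High, against 0.543 to 1.39 in the other animals. Their part in the Anxa10 counts was not tested. Anxa13, the intestinal annexin, had 2, 2 and 3 counts in Low Female2, Male1 and Male2 and 0 in the other libraries. A count of 0 allowed 0.0824 to 0.154 CPM at 3 counts per library, which covers counting error only.

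Genes that work with annexins were counted by list, with the 3 most abundant tested genes of each named, and other genes named below were chosen after their values were seen. The lists were chosen with earlier results of these data known. Of all tested genes 23.4% were higher and 25.3% lower, and with total counts 12.6% and 49.1%. Among the S100 partners, 0 of 6 tested genes rose and 2 fell, with total counts 0 and 3. S100a6, the partner of Anxa11, fell from 445 ± 71.5 to 137 ± 55.0 CPM (log2 fold change −1.71, SE 0.28, edgeR adjusted p = 0.000694), the same direction as Anxa11. S100a10, the partner of Anxa2, fell from 275 ± 49.4 to 151 ± 21.3 CPM (−0.86, SE 0.19, edgeR adjusted p = 0.00364), whereas Anxa2 was not called. S100a11, a partner of Anxa1, stood at 145 ± 30.6 and 175 ± 49.0 CPM and was not called (edgeR adjusted p = 0.292). Of the formyl peptide receptors, through which secreted Anxa1 signals, 1 of 5 was tested, Fpr2, at 0.345 ± 0.172 and 0.322 ± 0.302 CPM (edgeR adjusted p = 0.959). Fpr3, Fpr-rs3 and Fpr-rs4 had 0 counts in all 8 libraries.

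Of the 4 transglutaminases, which cross-link envelope precursors, 3 rose and 1 fell, against 23.4% and 25.3% of all tested genes. Tgm3 rose from 1233 ± 415 to 10610 ± 2489 CPM (log2 fold change 3.10, SE 0.31, edgeR adjusted p = 3.97e-05) and Tgm1 from 578 ± 217 to 2277 ± 913 (1.98, SE 0.27, 0.000241). Tgm5 rose from 4.33 ± 2.93 to 65.1 ± 14.7 CPM (3.90), and Tgm2, the tissue transglutaminase, fell from 33.1 ± 17.8 to 2.47 ± 0.78 (−3.74). Tgm3 is also among the suprabasal markers, so its direction is no separate evidence.

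Membrane repair genes, among which annexins are counted in other tissues, numbered 11, with a median log2 fold change of 1.09. Of these, 6 rose and 3 fell, against 23.4% and 25.3% of all tested genes. Ahnak, the giant scaffold that binds the S100a10 and Anxa2 tetramer, rose from 1029 ± 342 to 2940 ± 933 CPM (log2 fold change 1.51, SE 0.30, edgeR adjusted p = 0.00248). Capn1, a calcium-dependent protease, rose from 214 ± 37.4 to 713 ± 186 CPM (1.73, SE 0.22, 0.000139). Pdcd6ip, the adaptor ALIX, rose from 236 ± 15.8 to 503 ± 120 CPM (1.09, SE 0.19, 0.00111). The 3 that fell were the ferlin Myof (−1.66), caveolin Cav1 (−3.02) and the calpain subunit Capns1 (−0.61). With total counts 6 were higher and 4 lower, against 12.6% and 49.1% of all tested genes.

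Among the listed penta-EF-hand proteins (Sri, Pdcd6, Pef1 and Gca) 0 of 3 tested genes were called, against 48.7% of all tested genes. The calpain genes were counted with membrane repair instead. Pdcd6, the partner of Anxa11, stood at 66.5 ± 5.8 and 73.7 ± 8.8 CPM (log2 fold change 0.15, edgeR adjusted p = 0.414), and total counts turned it to −0.42, which passed (0.00482). Sri (sorcin), the partner of Anxa7, stood at 44.5 ± 1.2 and 56.9 ± 8.3 CPM (0.35, edgeR adjusted p = 0.0568, and 0.0365 with the animal as a block), and total counts turned it to −0.22. Pef1 stood at 47.1 ± 3.9 and 62.7 ± 16.1 CPM (0.41, edgeR adjusted p = 0.0845, and 0.0402 with the block), and total counts turned it to −0.18.

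In the plasminogen system, which the Anxa2 tetramer assembles at the cell surface, 1 of 6 tested genes rose and 2 fell, with total counts 0 and 3. Among all tested genes the shares were 23.4% and 25.3%, and with total counts 12.6% and 49.1%. The urokinase gene Plau fell from 44.4 ± 4.4 to 31.8 ± 4.1 CPM (log2 fold change −0.49, SE 0.13, edgeR adjusted p = 0.0117). Its receptor Plaur stood at 161 ± 91.6 and 77.3 ± 47.1 CPM and did not pass (log2 fold change −1.08, edgeR adjusted p = 0.14), but passed with total counts (−1.66, 0.0291). The inhibitor Serpinb2 stood at 2411, 361, 2162 and 1659 CPM in Low and at 2088, 2397, 2175 and 2700 CPM in High, and did not pass either (edgeR adjusted p = 0.382). Female2 Low was thus the lowest of the 8 libraries for Serpinb2, as it was for Anxa1, Anxa2 and Plaur.

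Of 8 genes that move phosphatidylserine, the lipid annexins bind, 3 rose and 3 fell, against 23.4% and 25.3% of all tested genes. Their median log2 fold change was −0.00. With total counts 1 was higher and 3 lower, against 12.6% and 49.1%. With the animal as a block 4 rose, the addition being the scramblase-family gene Plscr3 (edgeR adjusted p = 0.0137, and 0.0947 without the block). The flippase Atp11b rose from 183 ± 19.0 to 536 ± 98.8 CPM (log2 fold change 1.55, SE 0.18, edgeR adjusted p = 0.000102). The flippase subunit Tmem30a (0.73) and the flippase Atp11a (0.70) passed with TMM (edgeR adjusted p = 0.0119 and 0.00452) but not with total counts. The scramblases Ano6 (−0.74) and Plscr1 (−2.09) were among those that fell. Of the copines, another family of calcium-dependent phospholipid binders, 1 of 6 tested genes rose and 2 fell. Cpne5 rose from 5.08 ± 2.09 to 42.6 ± 18.0 CPM (3.06, edgeR adjusted p = 7.64e-05), Cpne8 fell from 27.9 ± 4.1 to 10.5 ± 3.5 (−1.42, edgeR adjusted p = 0.000947), and Cpne3 was not called (−0.03, edgeR adjusted p = 0.91). With total counts Cpne3 was at −0.60 and passed (edgeR adjusted p = 0.0241), which made 1 copine higher and 3 lower.

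**Figure D5:**
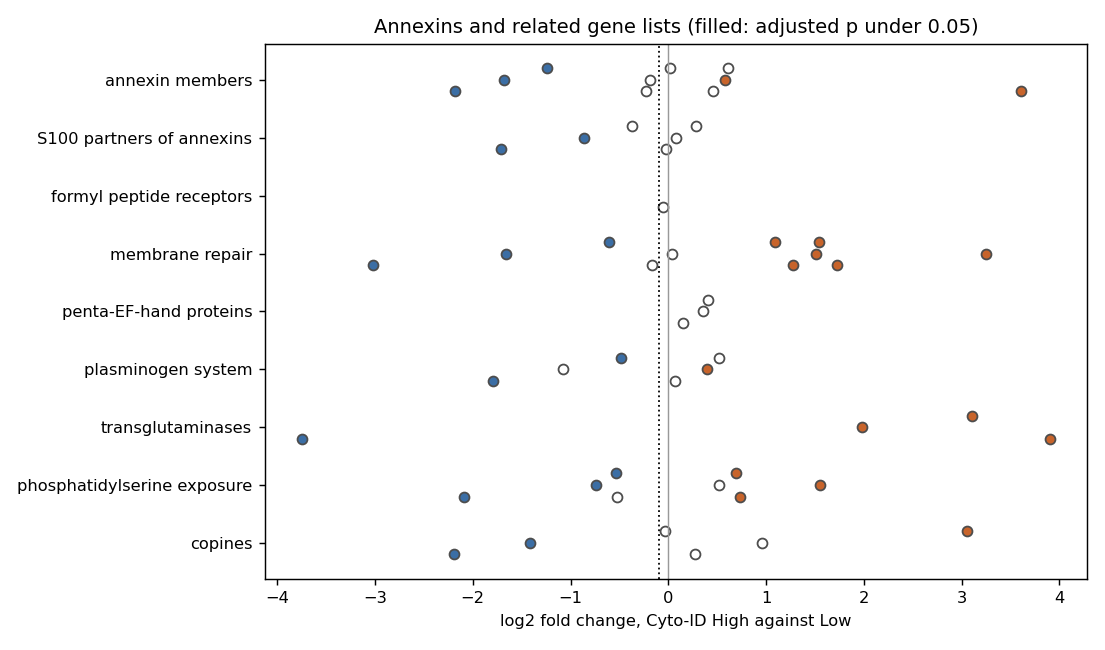
Log2 fold change of Cyto-ID High against Low (horizontal axis) of every tested gene of the annexin set and of 8 related lists, 1 point per gene, filled for an adjusted p under 0.05, with the dotted line at the median of all tested genes, −0.09. Annexins, membrane repair genes, the plasminogen system, transglutaminases, genes of phosphatidylserine exposure and copines each hold filled points on both sides of 0.

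The genes whose log2 CPM ran most like those of the leading called annexins over the 8 libraries were listed as a description. For Anxa7, Pearson's r was 0.98 with Gm16464, with Vegfd and with Ppp2cb. For Anxa11 it was 0.99 with Gm2274, with Elf4 and with 1110038B12Rik. The fraction difference, which all 8 libraries share, and the TMM factor of each library both enter these values.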

How the data were processed

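RNA was sequenced in bulk from 8 libraries, a Cyto-ID Low and a Cyto-ID High library from each of 4 mice. The deposited values are raw counts per gene symbol, which the authors made with STAR 2.7.3 on GRCm38, per the submitters' processing notes. The counting tool, its annotation, its use of strand and any use of molecular identifiers are not given in the sources used here. Totals were 26285150 to 29301054 counts.

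Counts were tested in R 4.3.3 with edgeR 4.0.16 (filterByExpr, TMM, glmQLFit and glmQLFTest, sex as a covariate, two-sided), with Benjamini-Hochberg adjustment over 17344 genes and a threshold of 0.05. Levels are TMM-scaled CPM; a prior count of 2 was added for log2 CPM. Alternatives were RLE factors, total counts, no filter, at least 10 counts in every library, DESeq2 1.42.0, voom in limma 3.58.1, the animal as a replicate block, no covariate, and each library left out. Both libraries of Female2 or of Male2 were also left out, chosen after seeing the data. The fits were tested on simulated data.

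Libraries were paired by the animal named in their labels. Deviations from the fraction means correlated across genes by 0.43, 0.32, −0.02 and 0.28 in Female1, Female2, Male1 and Male2. No libraries of a fraction agreed within sampling noise (chi-square per degree of freedom at least 17.7).

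The members and lists were chosen with earlier results of these data known. Named genes were all members, the other mouse annexins, the 3 most abundant tested genes of each related list, and the 3 genes most correlated with the annexin of the highest mean CPM over the 8 libraries among those called in each direction. Further genes of the lists were named after their values were seen. Lengths and overlaps came from GENCODE M21, in which 53388 of 55276 symbols matched, and promoters from RefSeq.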

Additional observations from a re-analysis of the deposited data

Results flagged for a closer look

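In 7 of 38 groups of 4 libraries tested, 1 library stood apart from the rest, by Dixon's test of the gap over the range, which chance passes for about 1 group in 20.

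Male2 High stood apart for Anxa1, at 2172 CPM against 1857, 1874 and 1888, and for Anxa2, at 1390 CPM against 937, 978 and 1005. By raw count Male2 High was the lowest High library for Anxa1, at 42227 against 48557, 42652 and 49525. For Anxa2 it was the highest by raw count, at 27017 against 25346, 23076 and 24576. Female1 Low stood apart for Anxa4, at 91.8 CPM against 113.1, 113.2 and 116.6. Female2 stood apart for Anxa10, at 0.11 CPM (4 counts) in Low against 0 in the others, where any count would stand apart, and at 1.57 CPM in High against 0, 0 and 0.0514. The summed gastric epithelial markers gave 19.4 CPM in Female2 Low, against 0.543 to 1.14 in the other Low libraries, and 117.8 CPM in Female2 High, against 0.839 to 1.39 in the other High libraries. Male2 High had the lowest TMM factor of the 8 libraries, at 0.679, which raises its CPM values, and the fewest genes detected, at 22208.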

How the results depend on the processing

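Anxa3, Anxa6, Anxa9 and Anxa11 kept their direction and their call under all 18 alternatives. Of the 17344 tested genes 8440 were called. Of 17607 to 17940 genes tested with a library left out 7269 to 8106 were called, and without both libraries of Female2 or of Male2 7570 of 17502 and 7279 of 17701. The number of annexins called was 5, and 4 to 6 with a library left out, 4 without both libraries of Female2 or of Male2, 6 with RLE factors (8456 of all genes) or voom (8470), and 7 with DESeq2 (8604) or total counts (10708, of which 2194 were higher and 8514 lower).

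With the animal as a replicate block, 9336 genes and 6 annexins were called, and Anxa1 was the addition (edgeR adjusted p = 0.0323). No other annexin call changed with the block. Anxa7 lost its call without both libraries of Female2 (edgeR adjusted p = 0.136) or of Male2 (0.0568). Anxa1 also passed with RLE factors (edgeR adjusted p = 0.0471), DESeq2 (0.0122) and voom (0.0481), and Anxa8 with DESeq2 (0.0265).

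The sign turned for 3 annexins. The log2 fold change of Anxa2 was 0.02, and −0.56 with total counts, where it passed (edgeR adjusted p = 0.00639), −0.021 with no filter, −0.00075 with at least 10 counts in every library, −0.035 without Female2, −0.056 without Male2, and −0.10 to 0.13 with a library left out. Total counts turned Anxa7, called at 0.58, to −0.017 and Anxa8 from 0.45 to −0.14. The difference had the same direction in all 4 animals for 8 annexins with TMM, 4 higher and 4 lower. With total counts it did so for 7, 1 higher and 6 lower. Under total counts the lower scale of the High libraries is the construction of that alternative, and the other causes were not tested. With 4 animals and a biological coefficient of variation of 0.257, differences the size of those of Anxa1, Anxa7 and Anxa8 lay near the threshold.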
